A study of Mus musculus with 11 samples.

Results

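The imprinted Dlk1-Dio3 interval of mouse chromosome 12 carries a long run of microRNA (miRNA) hairpins between the protein-coding genes Dlk1 and Dio3. The members described here are the mature miRNAs of 50 named stems of that run, either arm, which came to 100 of the 1281 mature names in the count table. They were taken by name, and the list of stems was chosen with earlier results of these data known. The small RNA libraries were made from untreated liver of C57/B6 mice with the genotype G4 telomerase knockout, in 2 groups. The 5 p53+/+ libraries, numbered 1 to 5, came from mice with short telomeres and intact p53. The 6 p53-/- libraries, numbered 6, 7, 8, 10, 11 and 12, came from telomerase-knockout mice with short telomeres that lacked p53. All 11 libraries therefore share the telomerase deletion, and mice with working telomerase were not analysed here. The series asked which miRNAs depend on p53. Age and sex are not given in the labels, and whether the libraries came from separate animals is not stated. The p-values therefore measure only how far these samples spread, which may be technical.

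In this interval the maternally inherited chromosome expresses non-coding RNAs, among them Meg3, Rian and Mirg, while the paternal one expresses the protein-coding genes Dlk1, Rtl1 and Dio3. The miRNAs are processed from the maternal non-coding transcripts, and those that lie opposite Rtl1 can pair perfectly with its messenger RNA and cut it. They are abundant in embryo, placenta and brain and low in adult liver. Each hairpin can release a 5p and a 3p arm, and bases 2 to 8 of a mature miRNA, its seed, do most of the pairing with target messenger RNAs.

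Along the plus strand of GRCm38 the hairpins fell into 3 sub-clusters. The first, called Meg3-Rtl1 here, ran from Mir770 to Mir136 at chr12:109563692-109595388 and held 11 stems. Mir770 lay in an exon of Meg3, Mir431, Mir433, Mir127, Mir434 and Mir136 lay opposite an exon of Rtl1, and the other 5 overlapped no gene of the GENCODE M21 annotation. The second, Rian, held Mir341 and Mir370 in introns of Rian at chr12:109611500-109618336. The third, Mirg, held 37 stems, of which 35 hairpins could be placed, from Mir379 to Mir410 at chr12:109709060-109743795. Of those 35 hairpins 12 lay in exons or introns of Mirg and 23 overlapped no gene of that annotation. A gap of 90.7 kb separated Mir370 from Mir379, against 16.1 kb between Mir136 and Mir341. The placed hairpins spanned 180.1 kb, and 47 of 48 were on the plus strand. Mir299b, the mirror of Mir299a, was the exception.

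The sequences below, from RefSeq on GRCm38.p6, are shown because the results turn on these members; the seed is in capitals. RefSeq matched 96 of the 100 names. The Meg3-Rtl1 and Rian members come first, then the Mirg members in chromosomal order.
miR-127-3p: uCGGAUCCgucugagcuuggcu
miR-434-5p: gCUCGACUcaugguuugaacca
miR-136-3p: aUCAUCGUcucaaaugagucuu
miR-370-3p: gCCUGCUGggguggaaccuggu
miR-379-5p: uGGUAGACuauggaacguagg
miR-379-3p: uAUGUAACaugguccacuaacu
miR-411-5p: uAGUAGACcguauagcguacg
miR-411-3p: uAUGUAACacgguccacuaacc
miR-299a-5p: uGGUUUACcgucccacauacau
miR-299a-3p: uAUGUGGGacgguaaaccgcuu
miR-300-3p: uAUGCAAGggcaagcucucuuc
miR-381-3p: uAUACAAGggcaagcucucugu
miR-134-5p: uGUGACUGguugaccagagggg
miR-485-3p: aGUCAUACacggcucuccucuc
miR-541-5p: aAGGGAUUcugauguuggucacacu
miR-409-3p: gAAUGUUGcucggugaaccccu

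The tested members share a locus but hardly any seed. Among the 30 tested members with a sequence there were 29 distinct seeds, and only miR-379-3p and miR-411-3p had the same one, AUGUAAC. None of the 29 was found among the other tested miRNAs with a sequence (317 of the 388 tested miRNAs had one). Names that were not tested added shared seeds, among them GGUAGAC of miR-379-5p and miR-1193-5p and UGGAUAU of miR-376b-5p and miR-376c-5p. Neighbouring hairpins gave near copies. The seeds of miR-379-5p and miR-411-5p differed only by G2A, the base of miR-379-5p first and positions counted from the 5′ end of the mature miRNA. Those of miR-381-3p and miR-300-3p differed only by A4G. The hairpins of the first pair, with both arms in capitals, and of miR-127, the most abundant member, read as follows.
Mir127: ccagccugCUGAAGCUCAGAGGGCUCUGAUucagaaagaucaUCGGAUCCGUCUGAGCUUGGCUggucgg
Mir379: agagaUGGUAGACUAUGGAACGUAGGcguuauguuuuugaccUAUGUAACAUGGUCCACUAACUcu
Mir411: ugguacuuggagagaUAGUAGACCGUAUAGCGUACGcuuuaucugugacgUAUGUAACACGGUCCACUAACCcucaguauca

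Total counts per library ran from 1905609 to 6682492, where CPM are counts scaled to a fixed library total. A count of 0 allows up to 3 counts, which stood for 0.449 to 1.57 CPM. The livers were rich in hepatocyte miRNAs, with miR-122, miR-192, miR-194 and miR-148a arms summing to between 488360 and 845450 normalised CPM. Normalised CPM are CPM after scaling for library composition. On the first principal component of all tested miRNAs (26.9% of variance) p53+/+ libraries 1 and 2 stood apart, and on the second (16.9%) p53-/- library 6 did. The genotype labels were not checked, since messenger RNA was not measured.

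The cluster was a small part of these livers' miRNA. Its members held 54774 reads over the 11 libraries, and their share of a library's reads ran from 0.0340% in p53+/+ library 2 (95% exact Clopper-Pearson interval 0.0314% to 0.0367%) to 0.181% in p53-/- library 12 (0.178% to 0.185%). Such intervals take in counting error alone, because molecules carried no identifiers. Of the 100 names 79 had a read and 31 passed the filter on low counts and were tested. Meg3-Rtl1 gave 28352 reads (51.8% of the member reads) from 22 names, 8 of them tested. Mirg gave 25585 reads (46.7%) from 74 names, 21 of them tested. Rian gave 837 reads (1.53%) from 4 names, 2 of them tested. The 48 names with reads that were not tested held 968 reads in all. At the edge of the filter, miR-379-3p was tested with 86 reads, and miR-329-3p, with 105 reads, was not.

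The 21 names without a read in any library were miR-540-5p and miR-665-5p of Meg3-Rtl1 and 19 of Mirg. Both arms of miR-299b, miR-544, miR-654 and miR-1197 were among them. The others were miR-323-5p, miR-376a-3p, miR-376c-5p, miR-410-5p, miR-487b-5p, miR-495-5p, miR-496a-5p, miR-539-3p, miR-666-3p, miR-668-5p and miR-758-5p. Each was below the limit of 3 counts, so no level or difference was detectable at this depth. For miR-299b depth was not the only limit. Both of its mature sequences lie wholly within those of miR-299a, so shared reads could have been counted for miR-299a alone. How such reads were assigned is not stated, and the miR-299a counts may include them.

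A pair of members led the cluster. miR-127-3p, which lies opposite Rtl1 and is known to target its messenger RNA, held 45.7% of all member reads, and miR-541-5p of Mirg held 18.1%. With miR-379-5p, miR-411-5p, miR-381-3p, miR-409-3p, miR-434-5p and miR-134-5p they made up 85.2%. These 8 had a mean of at least 20 normalised CPM.

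In the p53+/+ libraries 1 to 5 miR-127-3p stood at 466.4, 135.4, 295.97, 578.2 and 348.2 normalised CPM. In the p53-/- libraries 6, 7, 8, 10, 11 and 12 it stood at 124.3, 823.1, 459.4, 228.8, 585.4 and 801.8. The lowest libraries of the genotypes were close together and the groups overlapped, although the 3 highest values were all p53-/-. This gave a mean of 365 ± 168 (SD, n = 5) without the deletion of p53 and of 504 ± 290 (SD, n = 6) with it. The log2 fold change, p53-/- over p53+/+ throughout, was 0.47 (SE 0.46, adjusted p = 0.627 in edgeR's quasi-likelihood test), a difference within the spread between libraries. It was 0.19, 0.24 and 0.22 without library 2, 7 or 12. The other abundant Meg3-Rtl1 member, miR-434-5p, was at 11.4, 6.77, 23.3, 24.9 and 19.3 in p53+/+ and at 3.90, 34.4, 34.0, 9.56, 18.6 and 45.9 in p53-/- libraries. Library 6 was the lowest of all 11 and library 12 the highest, so the p53-/- range enclosed the p53+/+ range. Its log2 fold change was 0.49 (SE 0.52, edgeR adjusted p = 0.653), with 0.23 and 0.15 without library 2 or 12.

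miR-541-5p was at 147, 39.3, 89.8, 193 and 182 normalised CPM in p53+/+ libraries and at 239, 204, 295, 48.5, 219 and 310 in p53-/- libraries. All p53-/- libraries except library 10 lay above the p53+/+ maximum. The log2 fold change was 0.75 (SE 0.44, edgeR adjusted p = 0.408), and 0.48 without library 2. miR-379-5p, encoded by the first hairpin after the gap, was at 24.8, 13.1, 37.2, 58.2 and 38.1 in p53+/+ libraries. In p53-/- libraries it was at 77.9, 76.8, 85.2, 22.1, 44.6 and 78.5, and 4 of 6 were above the p53+/+ maximum. Its log2 fold change of 0.89 (SE 0.38) had an unadjusted p of 0.036 and an edgeR adjusted p of 0.230. Over the alternative analyses this fold change ran from 0.449 to 1.13.

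miR-411-5p, the near copy of miR-379-5p, ran from 25.3 to 45.4 in p53+/+ libraries (median 30.5), the narrowest spread of the 8 relative to the mean in that genotype. In p53-/- libraries it ran from 13.9 in library 10 to 82.8 in library 8 (median 52.1). The log2 fold change was 0.66 (SE 0.35, edgeR adjusted p = 0.358), and 0.44 without library 8. miR-134-5p, studied in neurons for its control of dendritic spines, was at 12.4, 3.61, 12.7, 20.4 and 16.9 in p53+/+ libraries. In p53-/- libraries it was at 45.9, 21.1, 32.5, 7.12, 26.7 and 31.2, above the p53+/+ maximum in 5 of 6. Library 6 was the highest of all 11 for miR-134-5p, the reverse of its place for miR-434-5p. The log2 fold change was 1.03 (SE 0.44, edgeR adjusted p = 0.226), and ran from 0.507 to 1.22 over the alternative analyses.

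miR-409-3p was at 38.1, 5.42, 17.1, 38.2 and 39.7 normalised CPM in p53+/+ libraries and ran from 9.37 to 58.4 in p53-/- libraries (median 49.6). The log2 fold change was 0.62 (SE 0.48, edgeR adjusted p = 0.548), and 0.32 without library 2. miR-381-3p was at 19.6, 4.51, 18.8, 34.99 and 23.8 in p53+/+ libraries and ran from 10.1 to 72.8 in p53-/- libraries (median 41.3), with a log2 fold change of 1.08 (SE 0.50, edgeR adjusted p = 0.276). For both, library 2 was the lowest of the p53+/+ and library 10 the lowest of the p53-/- libraries.

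**Figure D1:**
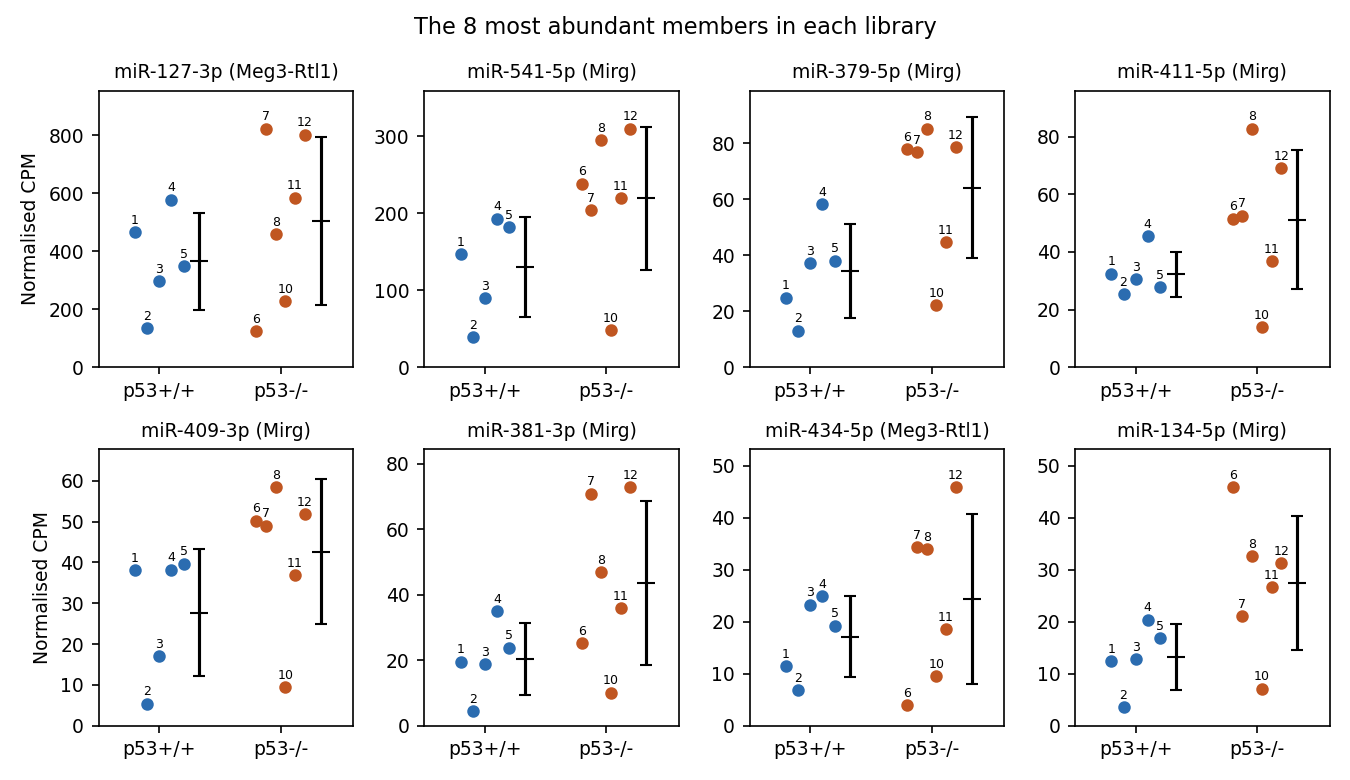
Normalised CPM (linear axes from 0) of the 8 members with a mean of at least 20, by genotype; each point is a library with its number, and the bars give mean ± SD (n = 5 and n = 6). Libraries 2 and 10 sit low in nearly every panel, and library 6 is the lowest p53-/- library for miR-127-3p and miR-434-5p, whereas library 10 is the lowest for the 6 Mirg members.

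No member was called between genotypes. Of all 388 tested miRNAs edgeR called 0 higher in p53-/- livers (0% called) and 1 lower (0.258% called). Among the 31 tested members it called 0, with a smallest adjusted p of 0.180. DESeq2, which called 3 of the 388 higher (0.773%) and 4 lower (1.03%), called 0 of the 31, with a smallest adjusted p of 0.089. At an unadjusted p under 0.05, edgeR gave 7 members higher and 0 lower, beside 32 higher (8.25%) and 35 lower (9.02%) among all 388. At the same threshold DESeq2 gave 8 members higher and 0 lower, beside 33 higher and 43 lower among all 388. All 7 members that edgeR gave belonged to Mirg and came from 5 hairpins of 1 locus (miR-379, miR-299a, miR-381, miR-134 and miR-485). They are thus not 7 independent observations. Among the 7, miR-299a-5p and miR-485-5p passed the filter on low counts through p53-/- libraries alone. No member had ranges that failed to overlap, against 5 miRNAs higher (1.29%) and 4 lower (1.03%) among the 388.

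As a description, 29 of the 31 tested members had a log2 fold change above 0, with a median of 0.62, while 190 of the 388 (49%) did, with a median of -0.01. Leaving out p53+/+ library 2 lowered the members' median to 0.35, and leaving out p53-/- library 7 lowered it to 0.41. Members that passed the filter only because they were high in 1 genotype had to differ, so these counts carry no test. The 4 members above 0 with the smallest p were both arms of miR-299a and both arms of miR-485. Of these, miR-299a-5p and miR-485-5p passed the filter through p53-/- libraries alone, so their fold changes and p-values carry no test of genotype. miR-299a-3p was at 6.68, 1.35, 2.35, 4.54 and 4.76 normalised CPM in p53+/+ libraries and ran from 4.12 to 11.0 in p53-/- libraries (median 8.24). Its log2 fold change was 1.05 (SE 0.37, edgeR adjusted p = 0.180). miR-299a-5p had 0 reads in p53+/+ library 1, at most 1.85 in the others and 0.562 to 5.58 in p53-/- libraries, with a log2 fold change of 1.53 (SE 0.59, edgeR adjusted p = 0.190); it was among the members with the fewest reads.

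miR-485-5p was between 0.670 and 1.66 normalised CPM in p53+/+ libraries and between 0.375 and 4.63 in p53-/- libraries, of which 5 of 6 were above the p53+/+ maximum. Its log2 fold change was 1.44 (SE 0.52, edgeR adjusted p = 0.180). miR-485-5p had 113 reads in all, with 2 each in libraries 1, 2 and 10, below the limit of 3 counts. It passed the filter through p53-/- libraries alone, and was still tested in 6 of the 11 fits with 1 library left out. miR-485-3p was between 3.35 and 12.1 in p53+/+ and between 4.31 and 19.9 in p53-/- libraries, also with 5 of 6 above the maximum, at a log2 fold change of 1.05 (SE 0.41, edgeR adjusted p = 0.191). The 95% interval of this log2 difference ran from 0.16 to 1.93. Both members below 0 had few reads. miR-379-3p, the minor arm of its hairpin, was at -0.43 (SE 0.55, edgeR adjusted p = 0.718), and between -0.777 and -0.238 with 1 library left out. miR-136-3p, the arm with more reads of a hairpin opposite Rtl1, was at -0.08 (SE 0.57, edgeR adjusted p = 0.973), and between -0.364 and 0.069 with 1 library left out.

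**Figure D2:**
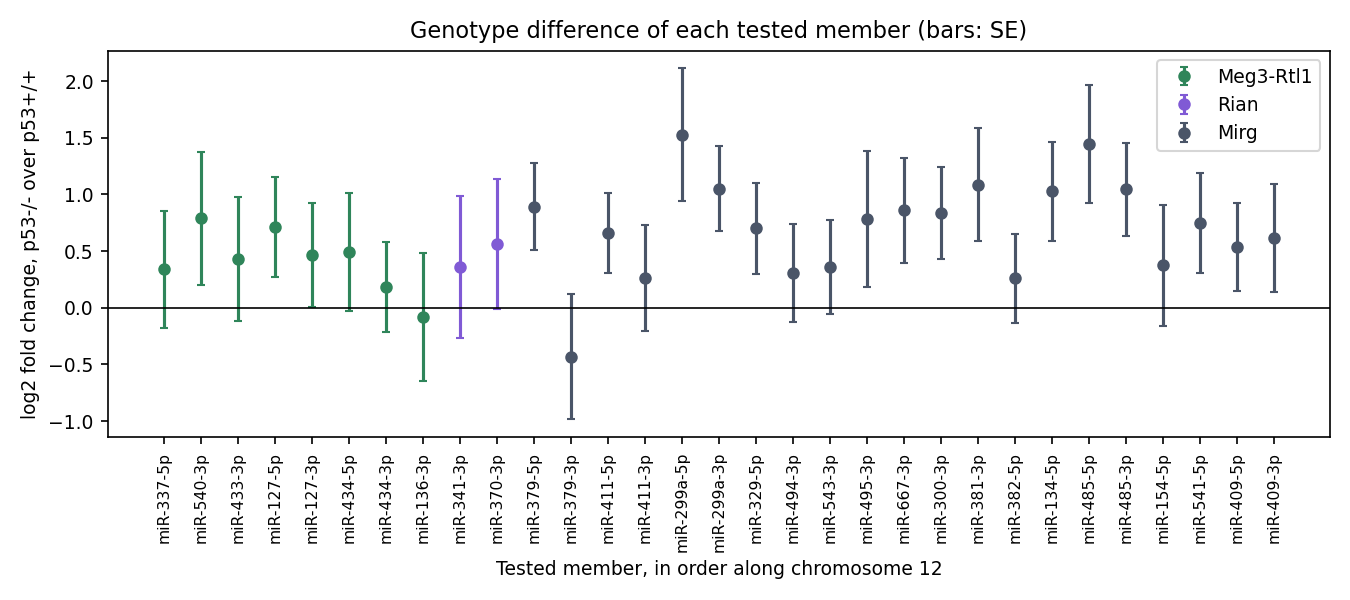
Log2 fold change (p53-/- over p53+/+) of the 31 tested members in chromosomal order, with bars of 1 SE from edgeR and colours by sub-cluster. All but miR-136-3p and miR-379-3p lie above 0, and no member passed an adjusted p of 0.05.

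By sub-cluster the median log2 fold change was 0.45 for Meg3-Rtl1 (7 of 8 above 0), 0.46 for Rian (2 of 2) and 0.75 for Mirg (20 of 21). The Mirg median and count include miR-299a-5p (1.53) and miR-485-5p (1.44). Both passed the filter through p53-/- libraries alone and so had to be high there. The summed level of Meg3-Rtl1 was 413 ± 185 normalised CPM (SD, n = 5) in p53+/+ and 567.6 ± 327 (SD, n = 6) in p53-/- libraries. The Rian sum was 11.3 ± 7.51 and 16.4 ± 10.9, and the Mirg sum 330 ± 141.6 and 561 ± 222, with the same n. In each sub-cluster the 2 genotypes overlapped. The difference between the 3 medians was not tested. Without p53-/- library 6 they were 0.64 for Meg3-Rtl1, 0.67 for Rian and 0.74 for Mirg, and with only p53-/- libraries 10, 11 and 12 they were 0.30, 0.57 and 0.27. The Meg3-Rtl1 median was 0.12 without library 7 and 0.19 to 0.23 without library 2, 3 or 12. The Rian median ran from 0.10 without library 12 to 0.92 without library 4, with 0.18, 0.29 and 0.27 without libraries 2, 5 and 7.

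Most libraries held a similar place for members across the whole interval. Library 2 was the lowest of all 11 for 15 of the 31 tested members. Library 2 also had the lowest total count, 1905609, followed by library 1 at 1965468 and library 11 at 2202415. Library 10 was below the median of the other 10 libraries for all 31, and library 7 was above it for all 31. Libraries 8 and 12 were above it for 30 of 31 each. So p53-/- libraries held both the highest levels and, in library 10, the second lowest. The same counts were not made over all 388 tested miRNAs, for which library 2 also stood apart on the first principal component. A shift of a whole library and a shift of the cluster were thus not told apart. Summed over all members the p53-/- libraries ran from 415 to 1690 normalised CPM (mean 1145 ± 487.04, SD, n = 6) and the p53+/+ libraries from 292 to 1166 (mean 754 ± 325, SD, n = 5). The ratio of the genotype means was 1.52, and the means were closer together than the lowest and highest library of either genotype.

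**Figure D3:**
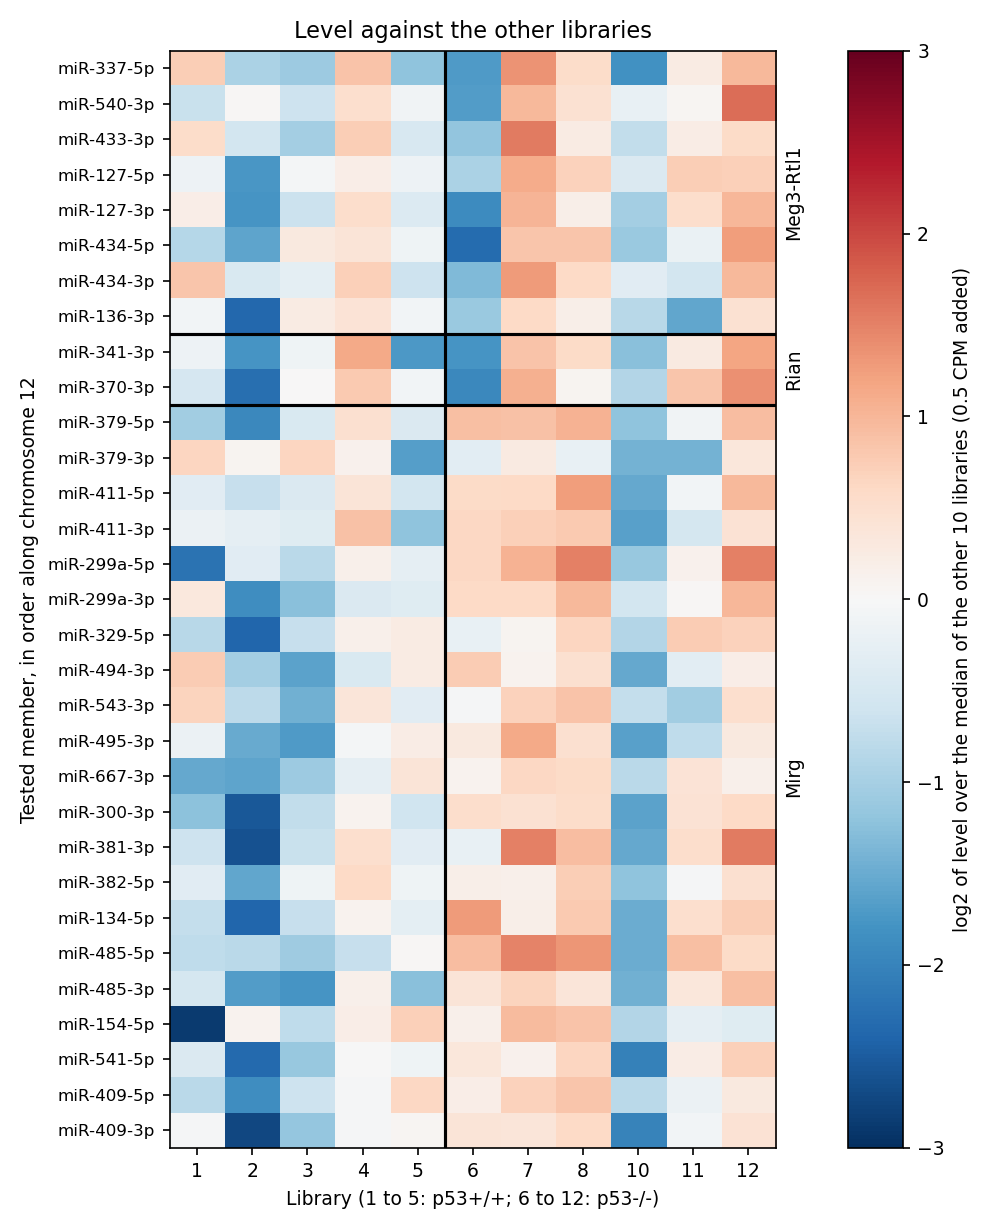
Each tested member (rows, in chromosomal order) in each library (columns), coloured by the log2 ratio of its level to the median of the other 10 libraries, with 0.5 CPM added to both; black lines part the sub-clusters and the genotypes. Columns 2 and 10 are low along the whole interval, and column 6 changes from low to high between miR-370-3p and miR-379-5p.

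p53-/- library 6 changed its place within the interval, at the gap between Mir370 and Mir379. All 10 tested members before the gap were below the median of the other 10 libraries in library 6, with a median of -1.5 on the log2 scale for the 8 of Meg3-Rtl1 and -1.84 for the 2 of Rian. After the gap 17 of 21 members were above that median, with a median of 0.39. Set against the other 5 p53-/- libraries alone, library 6 was below their whole range for 6 of 8 Meg3-Rtl1 members and both Rian members. For Mirg it was within their range for 19 of 21 and above it for 2, miR-494-3p and miR-134-5p. Among the members below, miR-540-3p rested on 1 read in library 6 and miR-433-3p on 3. The same counts were not made over all 388 tested miRNAs, for which library 6 also stood apart on the second principal component. Library 6 was singled out after these values were seen, and as 1 library it allows no test.

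The values around the gap show the size of the step. Before it miR-370-3p, a Rian member chosen here for its place, stood at 1.83 normalised CPM in library 6 and at 4.31 to 21.5 in the other p53-/- libraries. miR-341-3p, also chosen for its place, stood at 0.917 against 1.499 to 9.34. After the gap miR-379-5p stood at 77.9 in library 6, against 22.1 to 85.2 in the other p53-/- libraries, and miR-411-5p at 51.6, against 13.9 to 82.8. Mirg was thus at the level of the other p53-/- libraries while Meg3-Rtl1 and Rian were below them.

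The ratio of the Mirg sum to the Meg3-Rtl1 sum put this in 1 number per library. It was 0.678, 0.783, 0.757, 0.755 and 1.07 in p53+/+ libraries 1 to 5. In p53-/- libraries it was 4.37 in library 6 and 0.656, 1.40, 0.597, 0.784 and 0.826 in libraries 7, 8, 10, 11 and 12. The other 10 libraries lay between 0.597 and 1.40, libraries 2 and 10 with their low levels included, and the genotypes did not separate on it. As a share of the reads of both sub-clusters, Mirg held 81.4% in library 6 (2653 of 3260 reads, 95% exact Clopper-Pearson interval 80.0% to 82.7%). In the others the share ran from 37.4% (35.4% to 39.5%) in library 10 to 58.3% (57.1% to 59.5%) in library 8.

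The step was not carried by the leading members. With miR-127-3p and miR-541-5p left out of the sums, a choice made after the levels were seen, the ratio was 24.8 in library 6 and 3.25 to 6.00 in the others. Rian went with Meg3-Rtl1: the ratio of their sums was 0.0198 in library 6, inside the 0.0167 to 0.0356 of the others, while Mirg over Rian was 221 against 21.2 to 51.2. The Rian sum rested on 12 reads in library 6. Depth was not low there, at 5243933 counts in all, of which 607 came from Meg3-Rtl1.

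**Figure D4:**
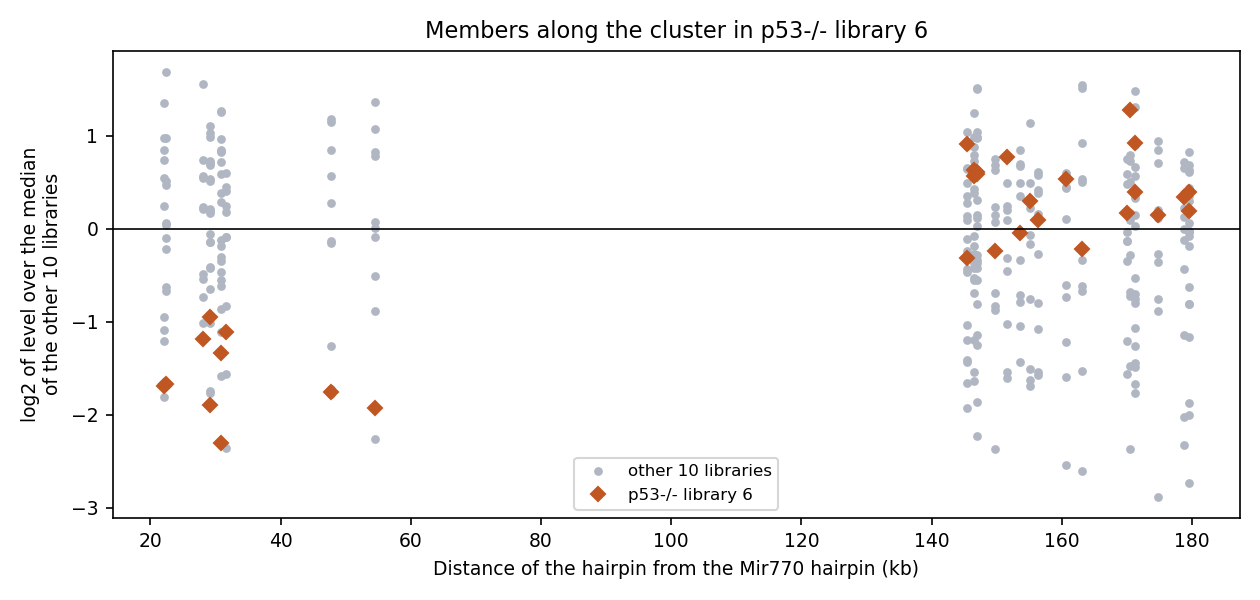
Log2 ratio of each tested member's level to the median of the other 10 libraries (0.5 CPM added), against the distance in kb of its hairpin from the Mir770 hairpin, for p53-/- library 6 (diamonds) and the other 10 libraries (grey points). The diamonds lie below 0 for all 10 members before the 90.7 kb gap and above 0 for 17 of 21 after it.

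**Figure D5:**
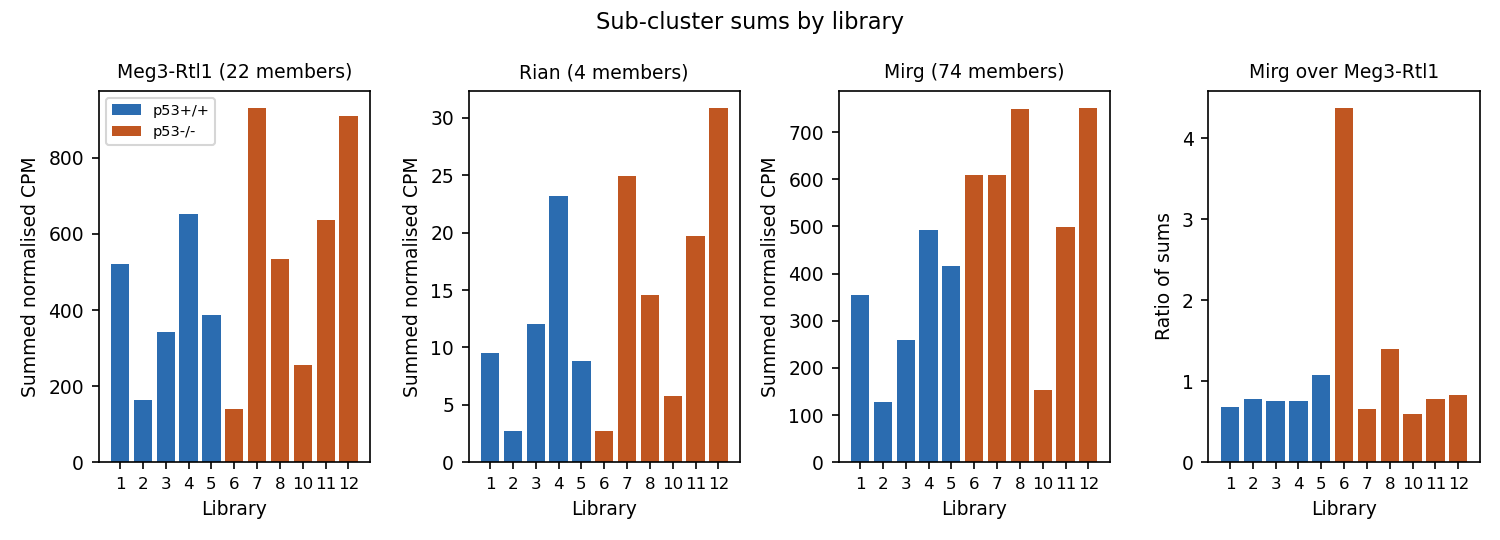
Summed normalised CPM of all names of each sub-cluster by library (bars from 0, colours by genotype), and the ratio of the Mirg to the Meg3-Rtl1 sum. The ratio is 4.37 in library 6 and at most 1.40 in the others.

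Other features of library 6 are given beside this step, and their part in it was not tested. Its hepatocyte list summed to 845450 normalised CPM, the highest of the 11. Its scaling factor for library composition was the lowest of the 11, at 0.832 against up to 1.24. A lower factor gives higher normalised CPM from the same counts. miR-296-3p, from the imprinted Gnas locus on another chromosome, was at 48.4 in library 6 and at most 7.53 elsewhere. miR-298-5p of the same locus was at 13.8 against at most 1.95. Both were picked out of a list of 10 names from other imprinted loci after their values were seen. Of that list 3 were tested and none was called: miR-296-3p had a log2 fold change of 2.19 (edgeR adjusted p = 0.190), miR-335-3p -0.52 and miR-335-5p -0.86. Of 17 further names inside the Dlk1-Dio3 interval 3 had reads and only miR-1247-5p, which lies near Dio3, was tested. It was at 11.9 in library 6, 11.6 in library 10 and 0.673 to 5.87 in the others, with a log2 fold change of 0.95 (edgeR adjusted p = 0.448). For miR-1247-5p libraries 6 and 10 were thus the highest, while library 10 was low for all 31 tested members.

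Within hairpins the leading arm was mostly the same in every library. Of the 24 hairpins with a tested arm 15 gave over 90% of their reads from 1 arm, and the same arm led in all 11 libraries for 19. The 5p arm led in 9 and the 3p arm in 15. Both arms were tested for 7 hairpins. miR-127 was almost wholly 3p: the 5p share was 0.571% ± 0.195 (SD, n = 5) in p53+/+ and 0.771% ± 0.144 (SD, n = 6) in p53-/- libraries, and miR-127-5p had a log2 fold change of 0.71 (SE 0.44, edgeR adjusted p = 0.448), and of 0.47 without library 2. The 5p share was 93.3% ± 4.82 and 98.1% ± 0.723 for miR-379, and 91.9% ± 2.58 and 93.6% ± 1.51 for miR-411, with the same n. The ranges of the genotypes overlapped for all 3.

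miR-434 gave many reads from both arms, with a 5p share of 65.8% ± 13.8 (SD, n = 5) and 69.5% ± 9.46 (SD, n = 6). It was 49.0% in library 1, on 49 reads (95% exact Clopper-Pearson interval 34.4% to 63.7%), the only library with more 3p reads. The 3p arm led for the rest: the 5p share was 22.5% ± 6.90 and 22.1% ± 7.15 for miR-409, 15.9% ± 7.11 and 16.5% ± 6.15 for miR-485, and 25.7% ± 17.8 and 26.7% ± 8.41 for miR-299a, with the same n. The log2 fold changes of the remaining arms of these hairpins were 0.18 for miR-434-3p, 0.54 for miR-409-5p and 0.26 for miR-411-3p, with edgeR adjusted p-values from 0.529 to 0.826. With 1 library left out they ran from -0.0979 to 0.365, from 0.293 to 0.862 and from 0.0297 to 0.645. In library 6 both arms of miR-127 and of miR-434 were below the range of the other p53-/- libraries, and both arms of miR-379, miR-411, miR-299a, miR-485 and miR-409 were within it.

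In bulk liver, fewer cells of a type and less RNA per cell cannot be told apart, so marker miRNAs of other cell types are given as levels, and their part in the members' values was not tested. edgeR called 0 markers in every list, and DESeq2 called 1, in the hepatocyte list. At an unadjusted p under 0.05 edgeR gave 4 biliary and epithelial and 2 pancreas markers lower, 1 each lower in the hepatocyte, erythroid and mesenchymal lists, and 1 each higher in the hepatocyte and leukocyte lists. The neuronal list, of interest because brain is rich in this cluster, had 6 of 9 names with reads, 3 tested and all below 0 (median -0.50). The list's sum was 8.58 to 20.3 normalised CPM in p53+/+ and 8.07 to 13.5 in p53-/- libraries. Both arms of miR-124, a miRNA typical of neurons, had 0 reads in every library. The 3 tested names of the list, miR-9-5p, miR-137-3p and miR-218-5p, had reads in all 11 libraries. The mesenchymal and stellate list (miR-199, miR-214, miR-143 and miR-145 arms) had 9 of 10 members below 0 (median -0.17) and summed to 5587 to 9729 and 6312 to 7324. In it miR-199a-3p and miR-199b-3p had nearly the same counts (33129 and 33123 reads). They are not separate observations, yet both enter the count and the sums. The pancreas list had 7 of 8 names with reads and 2 tested, both below 0 (median -3.35), and summed to 2.86 to 416 and 6.93 to 28.0. The sum of 416 was that of p53+/+ library 5 alone, and the other p53+/+ libraries reached at most 88.0. The biliary and epithelial list had 8 of 9 tested members below 0 (median -0.24) and summed to 1106 to 3068 and 854 to 2512.

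The erythroid list had 3 of 5 above 0 (median 0.25), with sums of 531 to 1407 and 594 to 1347, and the leukocyte list 6 of 8 above 0 (median 0.18), with sums of 193 to 322 and 240 to 362. The hepatocyte list had 5 of 8 above 0 (median 0.07). The endothelial list had both of its members below 0 (median -0.27), with sums of 6012 to 11013 and 5772 to 10477. The striated muscle list had 4 of 9 names with reads and both tested ones below 0 (median -0.78), with sums of 4.29 to 45.8 and 4.44 to 40.9. For the sum of every list the ranges of the genotypes overlapped. The marker that DESeq2 called, miR-194-2-3p of the hepatocyte list, did not overlap. It was at 277 to 330 normalised CPM in p53+/+ and at 400 to 477 in p53-/- libraries (log2 fold change 0.49, edgeR adjusted p = 0.174).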

How the data were processed

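Small RNA was sequenced from 50 mg of liver in 11 libraries, all of lane 4 per the labels. The authors deposited raw read counts per mature miRNA and hairpin, and the same values in CPM, which were not tested. The submitters' processing notes name GRCm38 and limma, and for the aligner, the counter and strand the sources used here give nothing. The table had 1418 rows for 1281 names, and a name listed for several hairpins took its highest row. No member was listed more than once. Genotypes were compared by the quasi-likelihood F-test of edgeR 4.0.16 (R 4.3.3; filterByExpr, TMM, genotype as the only term) on all 11 libraries, with Benjamini-Hochberg adjustment over the 388 that passed the filter and a threshold of 0.05. Alternatives were DESeq2 1.42.0, limma-voom 3.58.1, other filters and scalings, a sum over hairpin rows, and leaving out libraries. Sequences came from RefSeq and overlaps from GENCODE M21, both on GRCm38; miR-485-5p had no RefSeq entry, and the Mir544 and Mir666 hairpins were not placed.

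The members, sub-clusters, marker lists and the rule for named members were chosen with earlier results of these data known. That rule took members with a mean of at least 20 normalised CPM, the 4 with the smallest unadjusted p in each direction, any member called, and both arms of hairpins with both arms tested. It gave 18 members. Other members that are singled out were chosen after their values were seen. HA numbers in the descriptions (406, 407 and 411 for p53-/- libraries 6, 7 and 8, 573 or above for the others) have no stated meaning.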

Additional observations from a re-analysis of the deposited data

Results flagged for a closer look

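The highest and the lowest library of each genotype were set against their neighbours (Dixon's criterion) in 66 groups of values, and 6 stood apart. Chance alone flags about 1 group in 20.

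Of these, 3 concern the sub-cluster ratios of p53-/- library 6. Mirg over Meg3-Rtl1 was 4.37, with the nearest p53-/- library at 1.40. Mirg over Rian was 221.1, with the nearest at 51.2. Mirg without miR-541-5p over Meg3-Rtl1 without miR-127-3p was 24.8, with the nearest at 6.00. They share their reads and so are 1 observation.

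Mirg over Meg3-Rtl1 was also set apart in p53+/+ library 5, at 1.07, where the next p53+/+ library was at 0.783. miR-127-5p was lowest in p53+/+ library 2, at 0.451 normalised CPM, against 2.38 in the nearest library. That value is below the limit of 3 counts. The 5p share of miR-409 was highest in p53-/- library 10, at 35.9% (28 of 78 reads, 95% exact Clopper-Pearson interval 25.3% to 47.6%), against 22.6% in the nearest library.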

How the results depend on the processing

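No member was called under any of the 21 alternatives, and 15 of the 18 named members kept their direction in all of theirs. Over all tested miRNAs, DESeq2 called 3 higher and 4 lower, both on the filtered names and on every name with a read (the latter chosen after seeing the data), where edgeR called 0 and 1. Of 360 values of the named members 8 changed sign. miR-136-3p, at -0.08, went to 0.00809 with limma-voom and lay between -0.364 and 0.069 with 1 library left out, with 0.0576 without p53+/+ library 4 and 0.069, 0.0367 and 0.0687 without p53-/- libraries 6, 10 and 11. miR-434-3p went to -0.0979 without library 7 and -0.00688 without library 12, and miR-411-3p to -0.41 with only libraries 10, 11 and 12 of the p53-/- group. The cause was not tested.

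The median log2 fold change stayed above 0 for each sub-cluster. With 1 library left out it lay between 0.35 (without library 2) and 0.82 (without library 10) for all tested members; library 7 left out gave 0.41. For Meg3-Rtl1 it lay between 0.12 (without library 7) and 0.64 (without library 6), with 0.21, 0.23 and 0.19 without libraries 2, 3 and 12. For Mirg it lay between 0.51 and 0.94. For the 2 Rian members it lay between 0.10 (without library 12) and 0.92 (without library 4), with 0.18, 0.29 and 0.27 without libraries 2, 5 and 7. With only p53-/- libraries 10, 11 and 12 it was 0.30 for Meg3-Rtl1, 0.57 for Rian and 0.27 for Mirg, so Mirg was then not above Meg3-Rtl1. Without libraries 1, 2 and 6, chosen after seeing the data, it was 0.63, 0.36 and 0.47. Between alternatives the median of all tested miRNAs ran from -0.07 to 0.07.

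No paired analysis was possible because replicate numbers run on across the genotypes and none is shared. Levels below 0.449 to 1.57 CPM, depending on the library, could not be told from 0.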
